A study of Mus musculus with 8 samples.

Results

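The transcripts of the integrin and laminin subunits were followed in single cells of mouse colon tumors. The members were all rows whose whole symbol is an integrin α or β subunit (Itga or Itgb with its number or its letter d, e, l, m, v or x) or a laminin chain (Lama, Lamb or Lamc with 1 digit). Of 20276 gene symbols in the tables, 38 met this rule, namely 18 integrin α subunits, 9 integrin β subunits, 5 laminin α, 3 laminin β and 3 laminin γ chains. The rule used no measured value.

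Integrins are receptors of an α and a β subunit that tie cells to the extracellular matrix or to other cells and pass force and signals through talin and kindlin to the actin cytoskeleton. Laminins are trimers of an α, a β and a γ chain that polymerize in basement membranes, the sheets on which epithelium rests. In the intestine, α6β4 holds epithelial cells to laminin with the Lama3 and Lamb3 chains in hemidesmosomes, β1 integrins bind collagen, fibronectin and laminins, and the β2 and β7 integrins are borne by leukocytes.

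The tumors had grown from genetically modified tumor organoids grafted into the cecum of mice. FibΔZeb1 mice carried a tamoxifen-inducible Cre (Col1a1Cre-ERT2 transgene positive in the labels, named Col1a2-CreERT2 in the methods of the study), which deletes the transcription factor gene Zeb1 in fibroblasts, FibCtrl mice were transgene negative, and both groups received a tamoxifen diet. Per the methods of the study, the Cre line was crossed with mice of a conditional (floxed) Zeb1 allele, and Cre-negative mice of this cross were the FibCtrl group. Each of 8 plates (4 for each genotype) held cells of 1 mouse, sorted as EPCAM+, CD45+ or negative cells without CD31+ cells, 1 to a well. The Cre acts in host cells that express its collagen promoter, whereas the tumor epithelium came from the graft, so only host cells could lose Zeb1.

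Plates held 1759509 to 7079527 transcripts over 384 wells each. Of 3072 wells, 1831 had at least 500 transcripts and an unremarkable mitochondrial share, and 1221 of them could be named by marker genes, none of which is an integrin or a laminin. There were 365 epithelial-like, 206 fibroblast-like, 189 neutrophil-like, 140 macrophage-like, 129 B cell-like and 124 T cell-like wells, with median depths of 25516, 8166, 1945, 10443, 2858 and 3632 transcripts per well, while 568 wells stayed unnamed. The levels of the markers follow from the naming and are given as a description: Col1a1 averaged 19097 CPM in fibroblast-like, 197 in epithelial-like and 394 in immune-like wells, Epcam averaged 966 CPM in epithelial-like and 16.2 in fibroblast-like wells, and Ptprc (CD45) averaged 1088 CPM in immune-like and 11.3 in fibroblast-like wells. CPM is a gene's count in the wells of a class on 1 plate, scaled to 1000000 counted transcripts with spike-ins and mitochondrial genes left aside, and every mean ± SD is over plates with at least 10 wells of the class. Reads came from the 3′ end of each transcript, with 1 count per molecule whatever its length, so levels of different genes are set side by side without a length correction.

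For fibroblast-like wells this left 5 plates, namely 2 of FibCtrl (replicate 1 with 67 wells and replicate 4 with 50) and 3 of FibΔZeb1 (replicate 1 with 27, replicate 3 with 20 and replicate 4 with 27). The targeted gene Zeb1 stood at 91.8 and 80.2 CPM on the FibCtrl plates and at 46.1, 46.4 and 28.5 CPM on the FibΔZeb1 plates. All 3 FibΔZeb1 plates were below both FibCtrl plates, with a difference of means of -45.6 CPM (two-sided exact permutation test, p = 0.1, the smallest that 10 arrangements allow). Less Zeb1 in every cell and a remainder of cells that kept it cannot be told apart in these sums. With plates of at least 5 wells the difference was -26.2 CPM (exact permutation p = 0.371). This added FibCtrl replicate 3 at 10.2 CPM (1 count over 7 wells) and FibΔZeb1 replicate 2 at 17.2 CPM (1 count over 5 wells).

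The sequences that bear on Zeb1 are the promoters, because ZEB1 binds the E-box CAGGTG or, on the other strand, CACCTG. In the 250 bases before the transcription start in RefSeq promoters (GRCm38.p6), which held 24 of the 38 genes, 8 members had this E-box (Itga3, Itga9, Itga11, Itgb5, Itgb6, Itgb8, Lama5 and Lamb3), against 19.4% of the 27025 genes with a promoter there (17.2% of all 32851 promoters). The binding sequence TGANTCA of AP-1 was found in Itgax alone (7.82% of genes), and GAGGAAGT, bound by PU.1 of myeloid cells, in Itga11, Itgav, Itgb2l and Itgb6 (2.79% of genes). Both strands were searched, and a match is a description of letters, not of binding. Shown are an epithelial chain, Lama5 (chr2:180225860-180226109, minus strand), and 2 subunits of fibroblasts, Itgb5 (chr16:33829415-33829664, plus strand) and Itga11 (chr9:62677605-62677854, plus strand), with the matches in capitals:
Lama5: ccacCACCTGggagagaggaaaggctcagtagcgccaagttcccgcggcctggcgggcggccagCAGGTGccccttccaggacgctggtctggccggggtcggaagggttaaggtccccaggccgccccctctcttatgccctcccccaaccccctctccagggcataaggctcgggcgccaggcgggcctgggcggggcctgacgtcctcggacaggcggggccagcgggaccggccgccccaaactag
Itgb5: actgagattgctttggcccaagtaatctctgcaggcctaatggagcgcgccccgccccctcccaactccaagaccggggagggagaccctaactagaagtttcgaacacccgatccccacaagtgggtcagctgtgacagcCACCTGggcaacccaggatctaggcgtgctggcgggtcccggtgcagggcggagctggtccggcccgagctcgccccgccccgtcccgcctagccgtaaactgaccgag
Itga11: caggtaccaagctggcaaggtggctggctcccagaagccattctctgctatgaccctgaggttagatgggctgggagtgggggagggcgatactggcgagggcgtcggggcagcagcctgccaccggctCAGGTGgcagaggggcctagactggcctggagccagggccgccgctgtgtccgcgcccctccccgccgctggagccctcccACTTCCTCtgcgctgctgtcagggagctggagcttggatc
The matches in Lama5 lie 246 and 186 bases before the start, that in Itgb5 109 bases before it, and in Itga11 the E-box lies 121 bases and the PU.1 sequence 40 bases before it. The starts differ between annotations: the E-box windows of Itga9, Itgb6, Itgb8 and Lamb3 lie inside the gene as GENCODE M21 annotates it, those of Itga3 and Itga11 run 87 and 29 bases into it, and those of Lama5 and Itgb5 end at its start.

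Which member was carried by which compartment was asked first. Fibroblast-like wells had the laminin chains of mesenchyme and vessels (Lama4, Lama2, Lamb1, Lamb2 and Lamc1) with the fibronectin, collagen and αv-type integrins, and epithelial-like wells had Lama5, Lama3 and Lamb3 with Itga6, Itgb4 and Itga3. Leukocytes carried Itgb2 with its partners and, of the laminins, mainly Lamc1. In an edgeR quasi-likelihood fit over all genes with plate as a term, 21 of 27 tested members differed between fibroblast- and epithelial-like wells at an adjusted p under 0.05, 12 higher and 9 lower in fibroblasts, where 41% of 10019 genes differed (21.6% higher and 19.5% lower). All 9 laminin chains tested were among them, and the median log2 difference over the 27 members was 1.17, against -0.03 over all genes. Their order over the 6 main classes is drawn in the map of subunit levels.

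**Figure D1:**
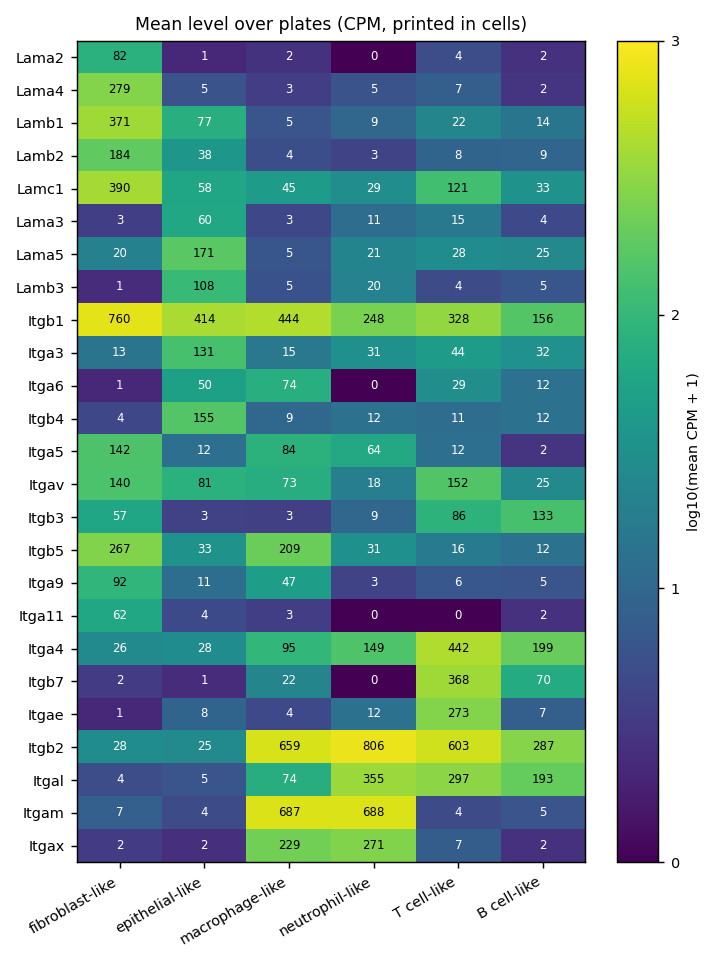
Mean level of members of at least 50 CPM in some class (rows) in 6 cell classes named by markers (columns); the mean CPM over plates stands in each cell and the color gives it on a log10 scale of CPM plus 1. Fibroblast-like wells stand out for Lama4, Lama2, Lamb1 and Lamc1, epithelial-like wells for Lama5, Lamb3 and Itgb4, and leukocytes for Itgb2, with Itgam in macrophage- and neutrophil-like wells (687 and 688 CPM).

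Lama4, the α chain of vascular and stromal laminins, was the main laminin α chain of fibroblasts. It stood at 215 and 395 CPM on the FibCtrl plates and at 238, 405 and 139 CPM on the FibΔZeb1 plates, against 0.767 to 8.61 CPM over the 8 epithelial plates. The log2 difference was 6.09 (SE 0.30, edgeR adjusted p = 6.82e-11), and the genotypes overlapped within fibroblasts. Lama2, the α chain of muscle and mesenchymal laminins, had 133 and 83.1 CPM on the FibCtrl and 56.9, 37.1 and 101 CPM on the FibΔZeb1 plates, against at most 3.35 CPM on an epithelial plate. It was higher in fibroblasts by 5.85 on the log2 scale (SE 0.44). As shares of all laminin α transcripts, Lama4 took 68.4% ± 13.4 and Lama2 23.0% ± 13.4 in fibroblast-like wells (SD, n = 5).

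Lamc1, the γ chain of most laminins, had 403 and 430 CPM on the FibCtrl plates and 346, 537 and 235 CPM on the FibΔZeb1 plates. Its β partners Lamb1 and Lamb2 averaged 371 ± 88.8 and 184 ± 52.1 CPM in fibroblasts, against 76.9 ± 44.4 and 37.8 ± 8.92 CPM in epithelium (SD, n = 5 and 8). In edgeR the log2 differences were 3.10 for Lamc1, 2.64 for Lamb1 and 2.69 for Lamb2 (SE 0.24, 0.28 and 0.32), so these 3 chains were shared by both compartments but several-fold higher in fibroblasts.

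Epithelial-like wells had another set of laminin chains. Lama5, the α chain of the mature epithelial basement membrane, ran from 106 to 224 CPM with a median of 171 over the 8 plates and averaged 19.9 ± 12.2 CPM in fibroblasts (SD, n = 5). It was lower in fibroblasts by -2.76 on the log2 scale (SE 0.33) and took 74.3% ± 10.96 of epithelial laminin α transcripts (SD, n = 8). Lama3 and Lamb3, chains of the laminin to which hemidesmosomes bind, averaged 59.5 ± 48.7 and 108 ± 64.5 CPM in epithelium (SD, n = 8), against 2.62 and 1.38 CPM in fibroblasts. Their log2 differences, fibroblast minus epithelial, were -3.41 and -4.95 (SE 0.49 and 0.57).

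Lama3 and Lamb3 also varied widely among epithelial plates. Lamb3 was lowest on both replicate 1 plates (11.7 CPM for FibCtrl and 38.3 for FibΔZeb1) and 87.6 to 188 CPM on the other 6 plates. Lama3 was low on the same 2 plates (12.99 and 20.9 CPM) and on FibΔZeb1 replicate 4 (16.1 CPM), and reached 150 CPM on FibΔZeb1 replicate 2. Both replicate 1 plates came from the first of 2 flow cells, as did both replicate 2 plates. On FibΔZeb1 replicate 2, 36 of 74 epithelial-like wells were rich in the mature colon genes Lypd8, Guca2a and Clca6, and the 47 such wells of all plates had 408 CPM of Lama3 from 188 counts (95% exact Poisson interval 351 to 470) and 252 CPM of Lamb3. The part of these wells in the spread between plates was not tested. Lamb3 overlaps G0s2 and Hsd11b1 on the other strand, and strand use in the counting was not stated, so its counts may hold reads of these genes. G0s2 is a neutrophil marker, and neutrophil-like wells had 20.1 CPM of Lamb3 on average.

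**Figure D2:**
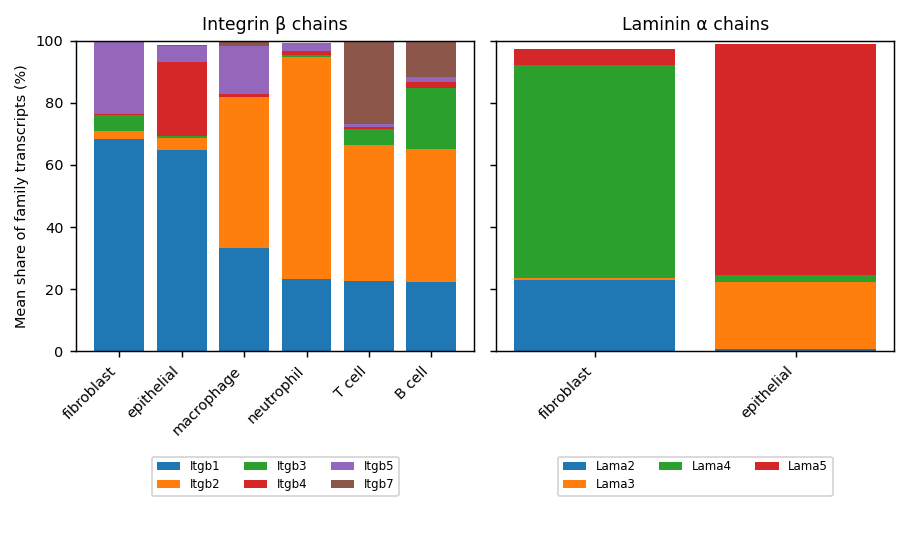
Mean share of each chain in all transcripts of its family, for the integrin β chains in 6 classes and the laminin α chains in fibroblast- and epithelial-like wells; stacks that end below 100% leave out chains not listed in the legend. Itgb1 takes 68.5% in fibroblast-like and 64.7% in epithelial-like wells, Itgb2 71.3% in neutrophil-like wells, Lama4 68.4% of the fibroblast and Lama5 74.3% of the epithelial laminin α chains.

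Among the integrin subunits, Itgb1, the common β partner of collagen, fibronectin and laminin receptors, was the most abundant member in both non-immune compartments. Fibroblast-like wells had 767 and 585 CPM on the FibCtrl and 955, 771 and 723 CPM on the FibΔZeb1 plates, and epithelial-like wells had 325 to 495 CPM with a median of 412. The groups did not overlap, and Itgb1 was higher in fibroblasts by 1.32 on the log2 scale (SE 0.25). With each well thinned to 1000 transcripts, 46.2% of 156 fibroblast-like wells (95% exact binomial interval 38.2 to 54.3) and 36.8% of 356 epithelial-like wells (31.8 to 42.0) held an Itgb1 transcript. Unthinned, the shares stood the other way round at 70.9% and 90.1%, beside the deeper epithelial wells, and 50 fibroblast-like and 9 epithelial-like wells were too shallow to be thinned.

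Receptors for fibronectin and vitronectin were higher in fibroblasts than in epithelium. Itga5, the fibronectin receptor α5, averaged 142 ± 59.0 CPM in fibroblasts and 11.6 ± 8.52 in epithelium (SD, n = 5 and 8; log2 difference 3.92, SE 0.37). Itgav had 140 ± 37.6 against 80.9 ± 19.2 CPM, and its β partners Itgb5 and Itgb3 had 267 ± 123 and 57.2 ± 23.5 CPM in fibroblasts against 32.7 ± 14.1 and 2.85 ± 2.46 CPM in epithelium. The log2 differences were 1.26, 3.25 and 4.72 (SE 0.23, 0.44 and 0.42), and T cell-like wells stood at 152 ± 59.3 CPM of Itgav (SD, n = 5). Itga11, a collagen receptor subunit of fibroblasts, stood at 83.1 and 49.6 CPM on the FibCtrl and 38.4, 61.3 and 79.2 CPM on the FibΔZeb1 plates, with 0.748 to 14.2 CPM in epithelium. Itga9, a receptor for tenascin and osteopontin, averaged 92.3 ± 76.5 CPM in fibroblasts and 11.05 ± 6.30 in epithelium (log2 difference 3.28, SE 0.43).

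The hemidesmosome subunit Itgb4 and the laminin receptor subunit Itga3 were higher in epithelium than in fibroblasts, and Itga6 was found in epithelium and in part of the immune wells. Itgb4 ran from 85.1 to 201 CPM with a median of 158 over the epithelial plates and did not exceed 4.83 CPM on a fibroblast plate (log2 difference -4.72, SE 0.34). Its partner Itga6 ran from 35.7 to 71.8 CPM in epithelium and averaged 1.21 CPM in fibroblasts (log2 difference -4.75, SE 0.79). Macrophage-like wells had 124 and 29.3 CPM of Itga6 on the FibCtrl and 33.7, 15.2 and 169 CPM on the FibΔZeb1 plates, T cell-like wells averaged 29.1 ± 22.1 CPM (SD, n = 5), and Itga6 did not differ between immune-like and epithelial-like wells beyond the threshold (log2 difference -0.71, SE 0.43, edgeR adjusted p = 0.176). After thinning to 1000 transcripts, 16.6% of epithelial-like wells held an Itgb4 transcript, against 1.92% of fibroblast-like wells and 0.794% to 2.42% of the wells of the 4 immune classes. Such shares depend on the depth they are read at, and that of Itgb4 in epithelium was 9.04% at 500 transcripts and 80.3% without thinning. Itga3, which pairs with β1 to bind laminins, averaged 131 ± 60.2 CPM in epithelium against 13.1 ± 6.71 in fibroblasts (log2 difference -2.65, SE 0.29). Itga7 (38.4 ± 23.8 against 2.24 ± 2.80 CPM) and Itgae (8.21 ± 3.88 against 1.23 ± 1.32 CPM) were lower in fibroblasts too, but Itga7 was no longer called with classes taken from clusters (log2 difference -0.40, edgeR adjusted p = 0.553). The Itgae call was lost without FibCtrl replicate 4, FibΔZeb1 replicate 1 or FibΔZeb1 replicate 3 (edgeR adjusted p = 0.0985, 0.0600 and 0.0994).

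**Figure D3:**
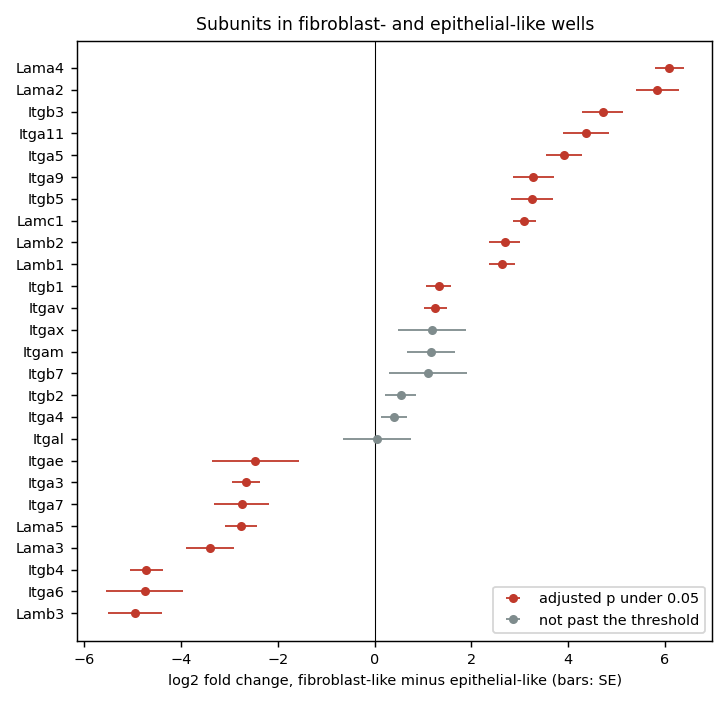
Log2 fold change of tested members, fibroblast-like minus epithelial-like wells (5 and 8 plates); points are edgeR estimates, bars their SE, and red marks an adjusted p under 0.05. The 12 members called higher in fibroblasts run from Lama4 (6.09) to Itgav (1.26), those called lower and drawn from Itgae (-2.46) to Lamb3 (-4.95), and the 6 not called lie between them.

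Immune-like wells, pooled on each of the 8 plates, had few laminin transcripts. The pools were different mixtures, with 50 macrophage-like of 89 wells on FibΔZeb1 replicate 1 and 53 B cell-like of 92 on FibΔZeb1 replicate 2. The part of the mixture in the pooled levels was not tested. None of the 9 tested laminin chains was higher than in epithelium or in fibroblasts, and 6 were lower in each comparison. Lamc1 was the most abundant, with 50.3 ± 22.3 CPM (SD, n = 8). In edgeR, 20 of 27 members differed between immune- and epithelial-like wells (11 higher and 9 lower, where 53.8% of all genes differed, 25.5% higher and 28.3% lower), and 20 of 27 between immune- and fibroblast-like wells (8 higher and 12 lower, where 41.5% differed, 19.5% higher and 22% lower). Itga9 lost its call against epithelium without FibCtrl replicate 3 (log2 difference 1.14, edgeR adjusted p = 0.0541; with all plates 1.30).

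The β2 integrins are the receptors by which leukocytes bind ICAMs and complement. Itgb2 was the main β chain of all 4 immune classes, with 806 ± 260 CPM in neutrophil-like (n = 7), 659 ± 166 in macrophage-like (n = 5), 603 ± 170 in T cell-like (n = 5) and 287 ± 32.9 in B cell-like wells (n = 3, all SD). The first 3 overlapped, and B cell-like wells were lower than neutrophil-like wells by 1.64 on the log2 scale (SE 0.38). They were also lower than macrophage-like wells (1.31, SE 0.39, edgeR adjusted p = 0.0119), a call lost without FibΔZeb1 replicate 4 (1.18, adjusted p = 0.145). Immune-like wells exceeded fibroblasts in Itgb2 by 4.38 and epithelium by 4.91 on the log2 scale (SE 0.33 and 0.26).

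Its α partners divided the leukocytes. Itgam (CD11b), the α chain of the complement receptor of myeloid cells, stood at 790 and 397 CPM on the FibCtrl and 532, 780 and 936 CPM on the FibΔZeb1 plates of macrophage-like wells, and at 396 to 998 CPM with a median of 664 in neutrophil-like wells. T cell-like wells averaged 3.90 and B cell-like wells 5.21 CPM, so no lymphoid plate came near a myeloid plate. After thinning to 1000 transcripts, 41.2% of macrophage-like and 50.9% of neutrophil-like wells held an Itgam transcript, against 0.806% of T cell-like and 0 of 126 B cell-like wells. No order of the 2 myeloid classes is read from these shares, which were 24.3% and 25.9% at 500 transcripts and 87.9% and 61.9% without thinning. Itgax (CD11c) averaged 229 ± 172 and 271 ± 188 CPM in the 2 myeloid classes, ranging from 73.7 to 494 CPM in macrophage-like wells, and at most 25.6 CPM on a lymphoid plate. Itgal, the α chain of LFA-1, averaged 355 ± 227 CPM in neutrophil-like, 297 ± 66.6 in T cell-like, 193 ± 83.5 in B cell-like and 73.9 ± 27.9 in macrophage-like wells. It was lower in macrophage- than in neutrophil- and T cell-like wells by -2.22 and -1.79 on the log2 scale (SE 0.38 and 0.42).

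Among the 4 main immune classes, Itgae and Itgb7, subunits of gut homing and retention, were highest in T cell-like wells. Itgae (CD103), which binds E-cadherin of epithelium, stood at 160, 298 and 315 CPM on the FibCtrl and 282 and 312 CPM on the FibΔZeb1 plates of T cell-like wells, and averaged 3.61 to 12.3 CPM in the other 3 immune classes. Its partner Itgb7 had 267, 417 and 465.8 CPM on the FibCtrl and 397 and 292 CPM on the FibΔZeb1 plates. No Itgb7 transcript was counted in neutrophil-like wells over 411723 transcripts, so that T cell-like wells were at least 50.5-fold higher (3 counts over the class taken as the floor). B cell-like wells averaged 69.9 ± 42.7 CPM of Itgb7 (SD, n = 3), with a log2 difference of 1.89 from T cell-like wells (SE 0.56, edgeR adjusted p = 0.0251). That call was lost without FibCtrl replicate 1, FibΔZeb1 replicate 2 or FibΔZeb1 replicate 4 (adjusted p = 0.102, 0.0633 and 0.0675). Itga4, which pairs with β7 and β1 to bind MAdCAM-1 and VCAM-1, averaged 442 ± 224 CPM in T cell-like, 199 ± 40.2 in B cell-like, 149 ± 45.2 in neutrophil-like and 95.4 ± 31.0 in macrophage-like wells. T cell-like wells exceeded neutrophil- and macrophage-like wells, which were lower by -1.53 and -2.105 on the log2 scale (SE 0.36 and 0.35), whereas T and B cell-like wells did not differ in Itga4 beyond the threshold (0.64, SE 0.41, edgeR adjusted p = 0.437).

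Itgb3 was most abundant in B cell-like wells, at 138 CPM on FibCtrl replicate 1 and 97.4 and 165 CPM on the FibΔZeb1 plates, where its partner Itgav had 30.7, 43.3 and 0 CPM. T cell-like wells had 23.9, 39.7 and 89.1 CPM of Itgb3 on the FibCtrl and 256 and 19.5 CPM on the FibΔZeb1 plates, so that 1 plate (FibΔZeb1 replicate 1) set their mean of 85.7 CPM. Macrophage-like wells had 7 counts in all. Itgb3 was lower in macrophage- than in B cell- and T cell-like wells, by -6.69 and -4.50 on the log2 scale (SE 0.97 and 0.75). Against T cell-like wells, the lower level of neutrophil-like wells (-2.94, SE 0.90) was not called without FibΔZeb1 replicate 1 (edgeR adjusted p = 0.0845) or FibCtrl replicate 4 (0.0616). Itgb5 was higher in macrophage-like wells than in the other main immune classes, with 209 ± 68.0 CPM (SD, n = 5) against 31.3, 15.8 and 12.1 CPM in neutrophil-, T cell- and B cell-like wells. Its call against B cell-like wells (log2 2.96) was lost without FibCtrl replicate 1, FibCtrl replicate 4 or FibΔZeb1 replicate 4 (adjusted p = 0.184, 0.0559 and 0.305).

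The members called were then counted for each pair of immune classes in edgeR. Between macrophage- and T cell-like wells 9 of 12 differed (3 higher and 6 lower), where 19.8% of 3311 genes were higher and 13.8% lower. Macrophage- and B cell-like wells differed in 7 of 12 (4 higher and 3 lower, against 15% and 10.1% of all genes). Of these, Itga4 and Itgb7 lost the call in DESeq2 (adjusted p = 0.0619 and 0.0965). Neutrophil- and T cell-like wells differed in 8 of 12 (2 higher and 6 lower, against 21.9% and 21.8%), and neutrophil- and B cell-like wells in 5 of 12 (3 higher and 2 lower, against 17.9% and 18.5%). Macrophage- and neutrophil-like wells differed in 3 of 12 (2 higher and 1 lower), close to or below the 23.3% and 18.7% of all genes. T and B cell-like wells differed in Itgae and Itgb7 only, both higher in T cells, where 5.59% of genes were higher and 5.89% lower. Few plates held at least 10 wells of both B cells and the class set against them. These were FibΔZeb1 replicate 4 alone for macrophages and FibΔZeb1 replicates 2 and 4 for neutrophils. For T cells they were FibCtrl replicate 1 and FibΔZeb1 replicate 2. The other plates enter these 3 contrasts only through links with further classes. Of all genes, the share called in these 6 comparisons was 33.6%, 25.2%, 43.7%, 36.4%, 42% and 11.5% in that order. The 3 that parted the 2 myeloid classes were Itgal, Itgb5 and Itgb7. Itgb7 in macrophage-like wells had 22.4 ± 22.2 CPM, at least 3.07-fold above the neutrophil floor, and the call was lost without FibΔZeb1 replicate 3 (edgeR adjusted p = 0.106) and in DESeq2 (adjusted p = 0.0555). Lamc1, the main laminin chain of leukocytes, had 121 ± 69.5 CPM in T cell-like wells (SD, n = 5) and was lower in neutrophil- and macrophage-like wells, although the call against macrophages was lost with classes taken from clusters (adjusted p = 0.254). Itgb1 was present in all 4 immune classes, from 156 ± 84.6 CPM in B cell-like to 444 ± 60.7 in macrophage-like wells, and no pair of these classes differed in it at the threshold.

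The question of the design was whether the loss of Zeb1 in fibroblasts changed these genes. In no class did a member pass the threshold between genotypes. In fibroblast-like wells 0 of 18 tested members were called with edgeR (background 0% of 8181 genes), 2 of them at an unadjusted p under 0.05 beside 479 of the 8181 genes, and DESeq2 called 0 members. Zeb1 itself, the deleted gene, was not called in this edgeR fit either (log2 difference -1.08, SE 0.29, edgeR adjusted p = 0.727). In epithelial-like wells 0 of 19 were called (0% of 10162 genes), and 0 of 12, 0 of 5, 0 of 8 and 0 of 6 in macrophage-, neutrophil-, T cell- and B cell-like wells (0%, 0.114%, 0% and 0.547% of genes, in B cell-like wells 0.324% higher and 0.223% lower), with 0 members at an unadjusted p under 0.05 in these 5 classes and 0 called by DESeq2. B cell-like wells had 1 FibCtrl plate, which the fit takes to vary like the FibΔZeb1 plates. The difference between genotypes was not called to differ between compartments for any of 27 members in edgeR (2, 0 and 1 of them at an unadjusted p under 0.05 in the 3 contrasts, 0 of 10019 genes called).

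**Figure D4:**
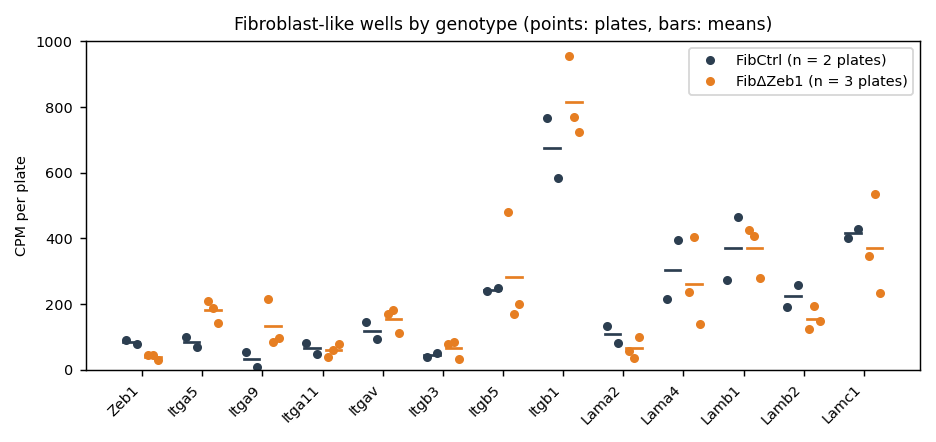
Level of Zeb1 and of 12 members in fibroblast-like wells in CPM; points are plates (FibCtrl n = 2, FibΔZeb1 n = 3) and bars are means. The FibΔZeb1 plates lie below both FibCtrl plates for Zeb1 and above them for Itga5 and Itga9, and the genotypes overlap for the other 10 members drawn.

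The 2 members with an unadjusted p under 0.05 in fibroblasts were receptors for fibronectin and tenascin. Itga5 stood at 99.5 and 70.0 CPM on the FibCtrl plates and at 211, 189 and 143 CPM on the FibΔZeb1 plates (log2 difference 1.07, SE 0.30, edgeR adjusted p = 0.745). Itga9 stood at 54.1 and 10.2 CPM on the FibCtrl and at 215, 83.6 and 98.3 CPM on the FibΔZeb1 plates (1.97, SE 0.68, edgeR adjusted p = 0.840). In both, all 3 FibΔZeb1 plates lay above both FibCtrl plates, and these 2 were the only such members of 18, where 10.3% of all genes did so and 9% lay the other way. The plates differed in their fibroblasts, mainly among the FibΔZeb1 plates. Contractile wells, richer in Acta2 and its like than in Dpt and its like, made up 18 of 64 and 8 of 38 wells with a state on the FibCtrl plates and 21 of 24, 6 of 15 and 4 of 23 on the FibΔZeb1 plates. Their part in these 2 differences was not tested.

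Both differences depended on which wells were taken. With plates of at least 5 wells the log2 difference was 0.20 for Itga5 and 0.89 for Itga9, and with the fibroblast-like wells kept that held Ptprc or Epcam transcripts it was 0.66 and 1.479. Without FibCtrl replicate 4 it was 0.83 and 1.27, and without FibCtrl replicate 1 it was 1.36 and 3.67. Itga9 passed the threshold in edgeR with no filter on low counts (1.94, adjusted p = 6.51e-05), while with flow cell as a term it did not (2.41, adjusted p = 0.0632).

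The other fibroblast members differed by less than their errors allow to call. Itgb1 averaged 676 CPM on the FibCtrl and 816 CPM on the FibΔZeb1 plates (log2 difference 0.25, SE 0.28). Lama2 averaged 108 and 65.2 CPM (-0.80, SE 0.43, edgeR adjusted p = 0.940), with FibΔZeb1 replicate 4 inside the FibCtrl range. A p that misses the threshold does not show that these levels were alike, and the standard errors of 0.28 to 1.19 over the members tested give the precision of 5 plates.

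**Figure D5:**
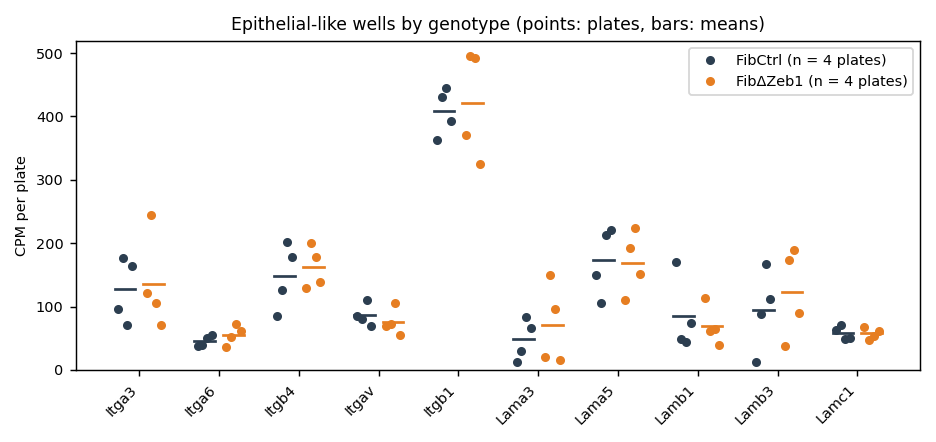
Level of 10 members in epithelial-like wells in CPM by genotype; points are plates (n = 4 for each genotype) and bars are means. The genotypes overlap for every member drawn, and the lowest Lamb3 value of each genotype is that of its replicate 1 plate (11.7 and 38.3 CPM).

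In epithelial-like wells, a class outside the fibroblasts targeted by the Cre, no tested member had non-overlapping genotypes. This was 0 of 19, where 0.669% of genes were higher and 0.571% lower on every FibΔZeb1 plate. The class includes the 47 wells rich in mature colon genes, whose origin from graft or host was not tested. Itgb4 stood at 85.1, 127, 201 and 178 CPM on the FibCtrl and at 129, 201, 178 and 139 CPM on the FibΔZeb1 plates (log2 difference 0.13, SE 0.25). The plates overlapped throughout. The smallest unadjusted p in leukocytes was that of Itgb2 in macrophage-like wells, with 555 and 456 CPM on the FibCtrl and 656, 746 and 884 CPM on the FibΔZeb1 plates (0.59, SE 0.28, edgeR adjusted p = 0.942). Itgb1 in neutrophil-like wells stood at 154, 41.7 and 257 CPM on the FibCtrl and at 304, 309, 359 and 315 CPM on the FibΔZeb1 plates (0.99, SE 0.50, edgeR adjusted p = 0.866), from 2 to 29 counts a plate.

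Fibroblast states were compared within 3 plates that held at least 5 wells of each (FibCtrl replicate 1, FibCtrl replicate 4 and FibΔZeb1 replicate 3). None of 14 members tested was called between contractile and matrix wells in edgeR (2.5% of 6449 genes were, 0.713% higher and 1.78% lower in contractile wells), and 4 had an unadjusted p under 0.05, beside 627 of the 6449 genes. Itga5 was at 137, 217 and 276 CPM in contractile and at 67.3, 62.5 and 175 CPM in matrix wells, and Itga11 at 104, 108 and 204 against 65.4, 46.9 and 35.5 CPM. Both were higher in contractile wells on all 3 plates (log2 1.07 and 1.39, SE 0.41 and 0.50, edgeR adjusted p = 0.315 and 0.252). Lama2 was at 70.5, 0 and 0 CPM in contractile and at 189, 89.1 and 44.3 CPM in matrix wells (log2 -1.99, SE 0.63, edgeR adjusted p = 0.136). All contractile values of FibCtrl replicate 4, its zeros and those of Itga5 and Itga11 alike, rest on 8 wells with 36933 transcripts, so on few counts. Itga1, a collagen receptor of smooth muscle, was not among the 14, since the low-count filter left it out. It had 78.7, 0 and 108 CPM in contractile against 7.27, 3.12 and 4.43 CPM in matrix wells. With no filter it was called (log2 3.41, edgeR adjusted p = 0.00414), as with wells of at least 1000 transcripts (3.85, edgeR adjusted p = 0.0385). It was also called without FibCtrl replicate 4 (log2 3.86). That fit leaves out the only plate of the 3 where Itga1 was lower in contractile wells, so it is no further support. Pericyte- or smooth muscle-like wells had 481 CPM of Itga1, and 0 of these 24 wells kept the name with classes taken from clusters. Whether such cells were among the contractile wells was not tested.

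The remaining genes of the adhesion machinery were taken from a list of 59 focal adhesion, tetraspanin, basement membrane and ligand genes, 58 of which were in the tables. Between fibroblast- and epithelial-like wells 33 of 47 tested were called in edgeR, 28 of them higher in fibroblasts (41% of all genes were called, 21.6% higher). The 3 largest were Tnc (tenascin C), Nid1 (nidogen, which joins laminin to collagen IV) and Vcam1, with log2 differences of 6.88, 6.65 and 6.59 (SE 0.49, 0.38 and 0.83), while Tns4, Fermt1 (the kindlin of epithelium) and Cdh1 (E-cadherin) were lower by -4.67, -4.64 and -4.45 (SE 0.47, 0.42 and 0.24). Cdh1 is also a marker by which epithelial-like wells were named. Against epithelium, 17 of 47 were higher and 22 lower in immune-like wells (25.5% and 28.3% of all genes), led by Icam2, Fermt3 (the kindlin of blood cells) and Vcam1 at 6.96, 5.98 and 4.89 and by Fermt1, Bcar1 and Tns4 at -4.89, -4.09 and -2.92. Against fibroblasts, 9 were higher and 24 lower (19.5% and 22% of all genes), led by Icam2, Fermt3 and Parvg at 5.62, 4.90 and 3.92 and by Hspg2 (perlecan), Tnc and Nid1 at -6.13, -5.80 and -5.37. The median log2 difference of the list was 1.34 between fibroblasts and epithelium, beside 1.17 for the members.

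Among leukocytes, macrophage-like wells were higher in the ligands Fn1 (fibronectin), Thbs1 and Spp1 (osteopontin) than T cell-like wells, by 4.81, 4.59 and 4.199 on the log2 scale (SE 0.42, 0.53 and 0.57), with 6 of 21 list genes called and 0 lower (33.6% of all genes were called, 13.8% lower). Of the list, 13 of 21 differed between macrophage- and neutrophil-like wells (6 higher and 7 lower, 42% of all genes), 11 between neutrophil- and T cell-like wells (9 higher and 2 lower, 43.7% of all genes), 10 between neutrophil- and B cell-like wells (8 and 2, 36.4%), 8 between macrophage- and B cell-like wells (7 and 1, 25.2%) and 2 between T and B cell-like wells (1 and 1, 11.5%). In contractile against matrix fibroblasts, Tnc and Tln2 were higher (3.74 and 2.55, SE 0.46 and 0.58) of 39 tested, beside 2.5% of all genes called. Between genotypes 0 of the list were called in any of the 6 classes with edgeR, with 3, 1, 0, 2, 0 and 0 at an unadjusted p under 0.05 in fibroblast-, epithelial-, macrophage-, neutrophil-, T cell- and B cell-like wells.

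The 12 members that stayed under 50 CPM in the mean of all 6 classes were Itga1 (40.5 CPM in fibroblasts, 135 on FibΔZeb1 replicate 1), Itga7 (38.4 CPM in epithelium), Itga2b, Itgb6, Lama1, Itga10, Itgb2l, Itga8, Itgb8, Itga2, Itgad and Lamc3, the last 10 at most at 9.94 CPM. Itgad, Itgb2l, Lama1 and Lamc3 were not listed on every plate. For Itga7 and Itga1, overlapping genes (Mettl7b on the other strand and Pelo on the same strand) could share reads. At these depths, a level of 0 on a fibroblast plate allows 2.90 to 9.51 CPM (3 counts of the plate's total, counting error only).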

How the data were processed

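Cells of 8 tumors (4 FibCtrl and 4 FibΔZeb1, 1 mouse and 1 plate each) were profiled by SORT-seq. Per the methods of the study and its processing notes, reads were aligned with BWA to the GRCm38 transcriptome, and Cell Ranger 2.1.1 is also listed; strand use is not given in the sources used here. The deposited values were estimated counts, UMI counts that the authors' provider had corrected for UMI collisions, and were not scaled. Sums were rounded to whole numbers before testing. All plates carry wells of the same 384 positions, so shared well names do not mark shared cells, and a well received 1 sorted cell, so no doublet caller was run. Sort gates were not analysed here.

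Wells needed at least 500 transcripts and a mitochondrial share within 3 median absolute deviations above the plate's median. A well took the class whose markers, standardized over wells, scored highest (score at least 1, lead at least 0.5, at least 3 markers detected), and fibroblast-like wells with at least 2 Ptprc or Epcam transcripts were left out. Those left out were 42 wells with a median of 30674 transcripts, deeper than the 206 kept (8166). With classes taken from clusters, 124 of the 206 kept the name. Of the named wells, 97 lay near the limit of the lead. These limits, the fibroblast states (higher of a contractile and a matrix list, at least 2 markers) and the mature colon wells (at least 2 per 1000 transcripts) were set after the data were seen. Members and lists were chosen with earlier results of these data known.

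Counts were summed per plate and class for plates with at least 10 wells and tested in edgeR 4.0.16 (R 4.3.3; TMM, default filter, quasi-likelihood, Benjamini-Hochberg over all genes, threshold 0.05), with genotype as the term within a class and with plate as a term between classes; the script was tested on simulated data. The standard error is the log2 difference over the root of F. Compartments of a plate come from 1 mouse. Members of at least 50 CPM in the mean of a class are named with values, save for 1 that is not reported here although the counts of members hold it; of the adhesion list, the 3 largest called in each direction. DESeq2 1.42.0, RLE scaling, no filter, other well and plate minimums, classes from Leiden clusters, a replicate block, flow cell and left-out plates were alternatives. Poisson and binomial intervals (95%, exact) and floors (3 counts) cover counting error only. Promoters were those of RefSeq, and coordinates those of GENCODE M21.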

Additional observations from a re-analysis of the deposited data

How the results depend on the processing

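Of 95 differences between classes that passed the threshold for a member, recomputed under all alternatives (1491 values), 27 values lost the call and 0 reversed, and 13 differences lost it at least once, 10 of them without 1 plate. The count of members called by genotype in fibroblast-like wells moved from 0 to 2 with no filter on low counts (Itga9, and Lama1 with adjusted p = 0.0258) and to 1 with the replicate block (Itga9, log2 2.39, adjusted p = 0.0205). Between macrophage- and neutrophil-like wells the count of 3 became 6 with no filter, 5 with no plate term and 5 with classes from clusters, and ranged from 2 to 5 without single plates. Between neutrophil- and T cell-like wells the count of 8 ranged from 5 to 10 without single plates, at 5 without FibCtrl replicate 4 or FibΔZeb1 replicate 1. Between T and B cell-like wells the count of 2 became 4 with no plate term, 4 with plates of at least 5 wells and 5 with classes from clusters, and ranged from 1 to 4 without single plates. Between contractile and matrix wells the count of 0 became 1 with no filter, 1 with wells of at least 1000 transcripts and ranged from 0 to 1 without single plates. Differences that were not called changed sign for Itgb4 by genotype in epithelium without FibCtrl replicate 1 (-0.072) and without FibΔZeb1 replicate 2 (-0.0050), in a range from -0.072 to 0.31 without single plates, and for Itgb1 by genotype in fibroblasts with plates of at least 5 wells (-0.10). The cause was not tested. All other counts stayed within 1.5 times their value. The shares of all genes called under these settings are not given here, so the moved counts are not read as a result about the members.

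The replicate numbers are shared by the genotypes, but the labels do not say that they pair mice. In epithelial-like wells the deviations of same-numbered plates correlated at 0.541, 0.318, 0.167 and 0.077, and FibCtrl replicate 4 correlated best with FibΔZeb1 replicate 3 (0.392), so the numbers were not taken to pair the plates. The replicate block moved 1 count of calls, that of fibroblasts, and could not be fitted for T cell- and B cell-like wells. Without the mature colon wells or with fibroblast-like wells of Ptprc or Epcam kept, alternatives chosen after seeing the data, no count moved by over 1.5 times. For shares of wells with a transcript of the genes named in their class, 40 of 40 values recomputed with wells thinned to 500 transcripts or not at all moved. Shallow wells limit the neutrophil and lymphoid values most, with 36205 to 105198 transcripts a plate for neutrophil-like wells.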

Other observations

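The small classes were too few for a plate-level comparison and are given here as pooled sums with 95% exact Poisson intervals that cover counting error only. They rest on the marker rule: with classes taken from clusters, 0 of the pericyte-, mast cell- and NK-like wells kept the name, and 9 of 9 dendritic-like wells did. Pericyte- or smooth muscle-like wells (24 wells of 5 plates) had 481 CPM of Itga1 from 207 counts (418 to 551), 1414 CPM of Itgb1 (1304 to 1531), 488 CPM of Itgb5 and 311 CPM of Itgav, where fibroblast-like wells averaged 40.5 CPM of Itga1. Mast cell-like wells (11 wells of 3 plates) had 770 CPM of Itga2b, the platelet integrin αIIb, from 58 counts (585 to 996), with 465 CPM of Itgax and 412 CPM of Itgae, and 2 counts of Itgb2. Dendritic-like wells (9 wells of 6 plates) had 289 CPM of Itgax (195 to 412) and 202 CPM of Itgae (125 to 309), and NK-like wells (9 wells of 6 plates) had 1310 CPM of Itgb2 from 36 counts (917 to 1813).

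Within the epithelium, wells above the median of all such wells for the mean level of Krt7, Ly6a and Wfdc2 were set beside the others on 7 plates, without a test. Lama3, Itga3 and Itgb4 were higher in these wells on 7 of 7 plates, with means of 83.7 ± 69.8 against 15.9 ± 11.02 CPM for Lama3, 161 ± 66.9 against 69.5 ± 22.7 for Itga3 and 184 ± 49.7 against 132 ± 33.0 for Itgb4 (SD, n = 7). Itgb1 was higher on 6 of 7 plates (513 ± 142 against 340 ± 28.4 CPM), and Lamb3 on 6 of 7 (118 ± 76.0 against 86.2 ± 59.2). Not all members rose. Itga6 was higher on 4 of 7 plates (57.2 ± 19.2 against 45.7 ± 13.5 CPM), as was Lamb1 (86.7 ± 36.0 against 82.7 ± 53.3). Itga9 was lower on 6 of 7 (6.21 ± 5.06 against 15.6 ± 8.16). The wells rich in mature colon genes, left out of this split, had 147 CPM of Itgb6 from 68 counts (115 to 187) and 143 CPM of Itga4 from 66 counts (111 to 182), where all epithelial-like wells averaged 9.55 and 28.1 CPM.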
